A study of Mus musculus with 12 samples.

Results

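Keratins form the intermediate filaments of epithelial cells, and the hair keratins and keratin-associated proteins build the hair shaft. The genes described here are all symbols of the expression table that begin with Krt and a digit or with Krtap. There were 32 of them among 28116 symbols: 31 Krt symbols, 1 of them the pseudogene Krt8-ps, and the keratin-associated gene Krtap16-1. The symbols were selected on their names, and the group was singled out on the reads of some hair keratins, which had been seen to differ between the collection days in these data. The difference between days is therefore described here without a test.

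RNA was sequenced from whole tibialis anterior muscle of mdx mice (strain C57BL/10ScSn-Dmdmdx/J, 4 months old), which lack functional dystrophin. Every muscle, controls included, had been injected with cardiotoxin, a toxin that destroys muscle fibres and starts regeneration. The injection also held an inhibitor of the microRNA miR-106b (anti-miR-106b) or a scrambled inhibitor, and muscles were collected 7 or 3 days later. There were 3 libraries in each of the 4 groups: day 7 with anti-miR-106b, day 7 with the scrambled inhibitor, day 3 with anti-miR-106b and day 3 with the scrambled inhibitor. All groups thus share the dystrophin mutation, the toxin and the injection, and no uninjured muscle was analysed here. Libraries held 28857739 to 42825246 reads assigned to symbols, and 1 read equals 0.0213 to 0.0356 CPM (reads scaled to the library size the authors used). Markers of the labelled tissue were abundant: 8 skeletal muscle genes, among them the actin gene Acta1, the creatine kinase gene Ckm and the myosin gene Myh4, summed to 110782 ± 5090 and 116258 ± 4615 CPM in the anti-miR-106b and scrambled groups at day 7, and to 44680 ± 2466 and 68411 ± 6870 CPM in the anti-miR-106b and scrambled groups at day 3 (SD, n = 3 each). In a whole muscle, fewer cells of a type and less RNA per cell cannot be told apart.

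A keratin filament is built from pairs of a type I and a type II protein, and each kind of epithelium has its own pairs. Krt8 (type II) with Krt18 (type I) marks simple epithelia, Krt5 with Krt14 the basal epidermis, Krt1 with Krt10 the layers above it, and the type I group around Krt31 and Krt33 pairs with type II hair keratins such as Krt81 to Krt86 in the hair cortex. Skeletal muscle fibres are built around another intermediate filament protein, desmin, with a minor part played by simple epithelial keratins such as Krt8 and Krt19 beneath the fibre membrane. In the mouse most type I genes lie together on chromosome 11 and the type II genes on chromosome 15. Of the genes described here, 16 were on chromosome 11, 15 on chromosome 15 and Krt8-ps on chromosome 7 (GRCm38, GENCODE M21). Krt18, although type I, was on chromosome 15 with the type II genes. The 16 on chromosome 11 included the keratin-associated gene, which is not a type I keratin gene.

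Few of the 32 carried many reads. Over the 12 libraries they summed to 15401 reads, of which 76.4% belonged to Krt18, Krt8 and Krt80. Of the 32, 9 lay at 100 reads or more, 12 held 10 to 49 reads in all, and 11 held fewer than 10. Of the 51 keratins in the classes used here, 28 had a row in the table. The 23 without a row include the epidermal keratins Krt14, Krt1, Krt16 and Krt17 and the hair shaft keratins Krt35, Krt81 and Krt85. Every symbol in the table had a read in at least 3 libraries. Genes reaching 1 CPM in at least 3 libraries entered the tests, and 7 of the 32 did so: Krt18, Krt8, Krt80, Krt10, Krt222, Krt31 and Krt33b. Just inside that limit, Krt33b reached 1 CPM in 3 libraries with a highest value of 1.76 CPM. Those 3 were the anti-miR-106b libraries at day 3, so Krt33b entered only through the group where it was highest. Just outside the limit, Krt19 and Krt7 peaked at 0.555 and 0.533 CPM. Because a gene could enter through 1 group alone, the 7 do not stand for all 32.

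The neighbouring type I hair keratin genes Krt31, Krt33b and Krt33a had nearly all their reads at day 3. They lie on the minus strand within 39.4 kb at chr11:100046646-100050551, chr11:100023634-100029868 and chr11:100011195-100016212 (GRCm38). Krt34, a further type I hair keratin at chr11:100037347-100041554, sits between Krt33b and Krt31. The RefSeq promoters of Krt31, Krt33b and Krt34, 300 bases each around the annotated start, are shown because these genes are neighbours whose reads fell mainly on the same day, and that of Krt18 is shown as the promoter of the most abundant keratin. Capitals mark TATAAA and the words CTTTGAAG and ATTTTATG.
Krt31 promoter, GRCm38.p6 chr11:100050502-100050801, minus strand: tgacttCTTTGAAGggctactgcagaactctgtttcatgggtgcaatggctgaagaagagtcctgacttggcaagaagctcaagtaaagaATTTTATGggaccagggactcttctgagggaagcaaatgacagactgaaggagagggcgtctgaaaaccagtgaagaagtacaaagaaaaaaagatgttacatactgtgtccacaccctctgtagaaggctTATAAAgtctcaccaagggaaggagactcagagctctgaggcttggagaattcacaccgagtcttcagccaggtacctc
Krt33b promoter, GRCm38.p6 chr11:100029819-100030118, minus strand: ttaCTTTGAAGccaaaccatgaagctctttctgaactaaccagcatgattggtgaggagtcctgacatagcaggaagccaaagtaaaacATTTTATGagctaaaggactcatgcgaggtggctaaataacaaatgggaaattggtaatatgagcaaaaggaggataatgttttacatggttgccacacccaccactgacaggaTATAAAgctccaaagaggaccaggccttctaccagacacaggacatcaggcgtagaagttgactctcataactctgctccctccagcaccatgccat
Krt34 promoter, GRCm38.p6 chr11:100041505-100041804, minus strand: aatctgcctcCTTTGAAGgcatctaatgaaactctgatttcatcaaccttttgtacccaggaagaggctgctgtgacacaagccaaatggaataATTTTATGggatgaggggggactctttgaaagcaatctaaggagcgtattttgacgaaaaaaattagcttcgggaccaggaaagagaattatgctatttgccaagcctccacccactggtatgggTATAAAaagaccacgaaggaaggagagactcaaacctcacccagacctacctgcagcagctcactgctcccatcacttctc
Krt18 promoter, GRCm38.p6 chr15:102027966-102028265, plus strand: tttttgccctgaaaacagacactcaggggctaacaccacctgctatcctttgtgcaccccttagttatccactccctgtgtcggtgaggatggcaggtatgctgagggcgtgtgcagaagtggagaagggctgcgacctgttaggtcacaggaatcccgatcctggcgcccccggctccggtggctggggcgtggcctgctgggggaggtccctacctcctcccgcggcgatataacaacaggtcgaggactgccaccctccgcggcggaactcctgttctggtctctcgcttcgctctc
The TATAAA match began 29, 47 and 31 bases before the start in Krt31, Krt33b and Krt34. Searched on both strands, TATAAA was present in 11 of the 23 promoters found for 22 of the 32 genes, and in 13.6% of all 32851 promoters of the RefSeq table. ATTTTATG and CTTTGAAG are 2 of the longest words, 8 bases, that the Krt31, Krt33b and Krt34 promoters share, so their presence in these promoters is given by that choice. ATTTTATG began 160, 161 and 156 bases before the start in Krt31, Krt33b and Krt34, and CTTTGAAG began 244, 247 and 240 bases before it. A further shared word of 8 bases, GGACCAGG, is not marked. It lay at unlike distances, beginning 152, 31 and 84 bases before the start in the same promoters. On either strand, 1.23% of all promoters held ATTTTATG and 1.66% held CTTTGAAG, and among the 23 keratin promoters each was held by 3. The Krt18 promoter held none of these words, and its GC content was 61.3%, against 46.3%, 44.3% and 45.3% in Krt31, Krt33b and Krt34 and a median of 52.7% over all promoters. Aligned end to end, the Krt31 promoter was 59.6% identical to that of Krt33b and 59.4% to that of Krt34, and 47.6% to that of Krt18. The Krt33b promoter was 55.9% identical to that of Krt34 and 47.4% to that of Krt18. Between Krt34 and Krt18 the identity was 50.7%.

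Krt31, a keratin of the hair cortex, had 2, 1 and 1 reads in the anti-miR-106b libraries and 2, 0 and 0 in the scrambled libraries at day 7, against 69, 94 and 66 in the anti-miR-106b libraries and 54, 55 and 41 in the scrambled libraries at day 3. Krt33b, its neighbour, had 3, 2 and 5 reads in the anti-miR-106b libraries and 2, 0 and 0 in the scrambled libraries at day 7, against 70, 56 and 67 in the anti-miR-106b libraries and 38, 31 and 26 in the scrambled libraries at day 3. Krt33a had no read in any of the 6 libraries at day 7, against 9, 12 and 10 reads in the anti-miR-106b libraries and 4, 5 and 3 in the scrambled libraries at day 3. For all 3 genes every day 7 library lay below every day 3 library. Among all 14063 tested genes, 32.4% were lower in every day 7 library than in every day 3 library. Krt33a was not among the tested genes, and the share over all symbols was not counted.

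Summed over Krt31, Krt33a and Krt33b, the groups held 14 reads (anti-miR-106b, day 7), 4 (scrambled, day 7), 453 (anti-miR-106b, day 3) and 257 (scrambled, day 3). At equal library size the day 3 sum was 22.3 times the day 7 sum with anti-miR-106b (95% counting interval 13.1 to 41.1) and 58.6 times with the scrambled inhibitor (22.6 to 217). For Krt31 alone the day 3 level was 39.4 times the day 7 level with anti-miR-106b (15.2 to 146) and 68.5 times with the scrambled inhibitor (18.6 to 570). For Krt33b it was 13.3 times (7.07 to 28.2) with anti-miR-106b and 43.4 times (11.7 to 363) with the scrambled inhibitor. Krt33a was at least 7.11-fold lower at day 7 with anti-miR-106b and at least 3.65-fold lower with the scrambled inhibitor, taking 3 reads over the group as the limit that a count of 0 allows. These intervals and limits cover counting error only, and reads carried no molecular identifiers. The wide intervals come from the 2 to 14 reads at day 7, so the size of the drop is poorly fixed while its direction was the same in every library.

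**Figure D1:**
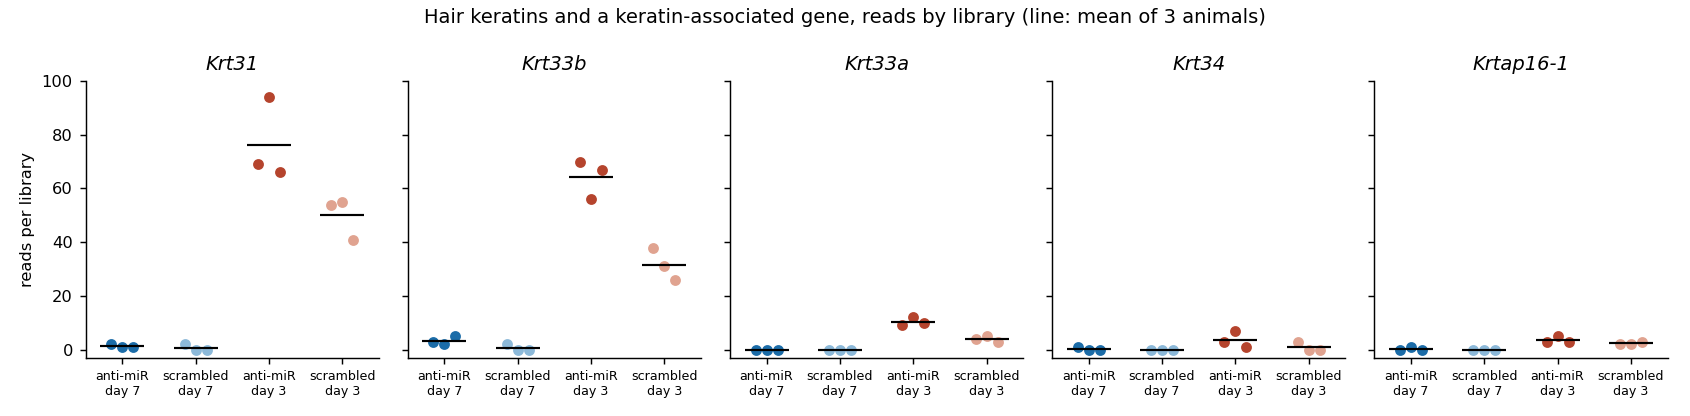
Reads per library (y axis, linear) of the hair keratins Krt31, Krt33b, Krt33a and Krt34 and of Krtap16-1 in the 4 groups. Each point is 1 library and each line the mean of 3. Krt31 and Krt33b lie at 26 to 94 reads in the day 3 libraries and at 0 to 5 in the day 7 libraries.

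The other 6 hair shaft keratins with a row (Krt34, Krt36, Krt83, Krt86, Krt87 and Krt90) summed to 8 reads (anti-miR-106b, day 7), 9 (scrambled, day 7), 28 (anti-miR-106b, day 3) and 13 (scrambled, day 3). Their day 3 level was 2.41 times the day 7 level with anti-miR-106b (1.07 to 6.12) and 1.32 times with the scrambled inhibitor (0.521 to 3.49). Krt34, between Krt33b and Krt31 on the chromosome, had 1, 0 and 0 reads in the anti-miR-106b libraries and 0, 0 and 0 in the scrambled libraries at day 7, against 3, 7 and 1 in the anti-miR-106b libraries and 3, 0 and 0 in the scrambled libraries at day 3. Krt34 is also the closest relative of its neighbours in sequence: 20.8% of the 50-base words in Krt31 transcripts, 15.5% of those in Krt33b and 15.7% of those in Krt33a occur in Krt34 too. Shared with any other gene were 28.1% of the words in Krt31, 24.2% in Krt33b, 17.8% in Krt33a and 33.1% in Krt34. Reads from such stretches may not be assignable to 1 gene, and the read length is not given in the sources used here. The levels of the 4 genes are uncertain to that extent. Type II hair keratins, the filament partners of Krt31 and Krt33, were at or near 0: Krt83 held 14 reads and Krt86 held 3 over all 12 libraries.

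**Figure D2:**
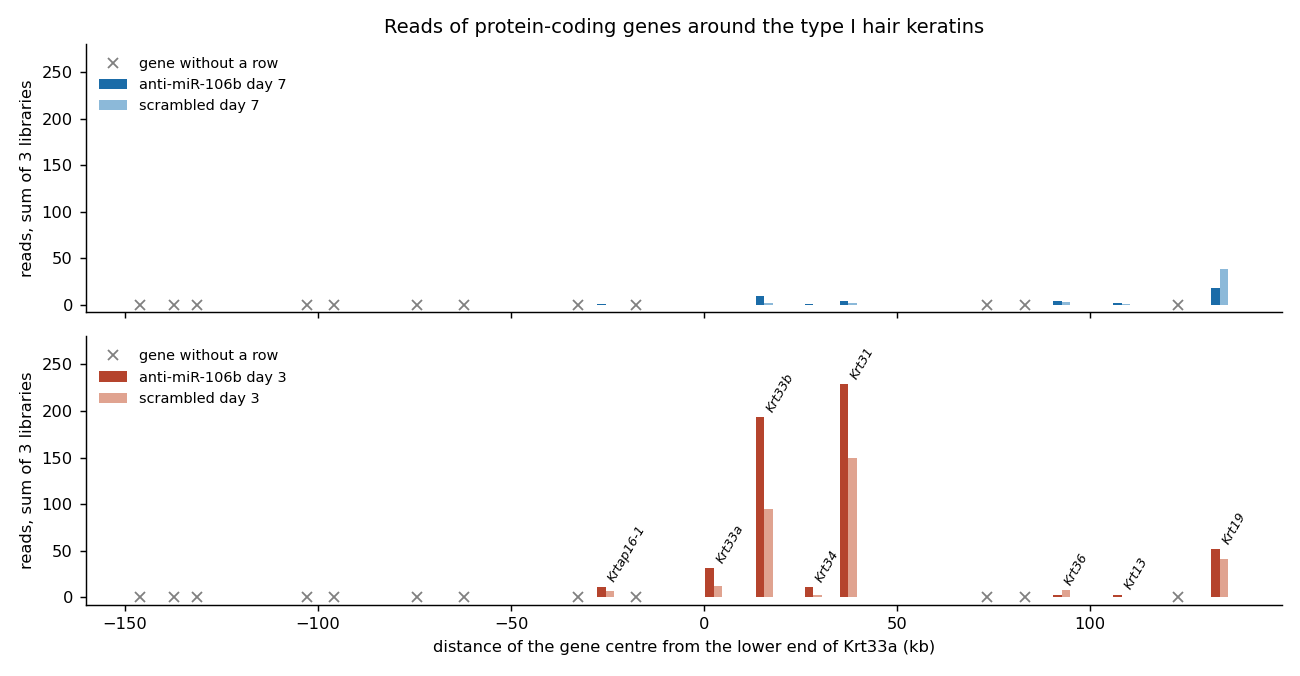
Reads summed over 3 libraries (y axis) for the protein-coding genes around Krt33a, Krt33b, Krt34 and Krt31, placed by distance in kb (x axis); the upper panel shows day 7 and the lower day 3, and crosses are genes without a row. At day 3 Krt31 stands at 229 and 150 reads and Krt33b at 193 and 95 (anti-miR-106b and scrambled), while Krt34 between them has 11 and 3.

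Genes on either side of this stretch were counted too. Krtap16-1, which encodes a keratin-associated protein of the hair shaft, had 0, 1 and 0 reads in the anti-miR-106b libraries and none in the scrambled libraries at day 7, against 3, 5 and 3 in the anti-miR-106b libraries and 2, 2 and 3 in the scrambled libraries at day 3. Of its 19 reads 18 were thus at day 3 and the days did not overlap. Among the 14063 tested genes 32.4% were lower in every day 7 library than in every day 3 library. Krtap16-1 lay below the filter, and the share over all symbols was not counted. It was the only symbol beginning with Krtap in the table. Krt36, another type I hair keratin, summed to 4 reads (anti-miR-106b, day 7), 3 (scrambled, day 7), 3 (anti-miR-106b, day 3) and 8 (scrambled, day 3). Krt13, a mucosal keratin, summed to 2, 1, 3 and 0 reads in the same groups, and Krt19, a simple epithelial keratin, to 18, 39, 52 and 41.

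Other genes of skin and hair are given beside the hair keratins, first those with few reads. Krt5, the basal keratin of epidermis and outer root sheath, had no read at day 7, against 0, 1 and 2 reads in the anti-miR-106b libraries and 0, 0 and 1 in the scrambled libraries at day 3. The 3 inner root sheath keratins with a row, Krt25, Krt27 and Krt28, summed to 9 reads (anti-miR-106b, day 7), 10 (scrambled, day 7), 14 (anti-miR-106b, day 3) and 10 (scrambled, day 3). The hair follicle gene Tchh (trichohyalin) had 3 to 8 reads in each library, and the hair regulators Hoxc13 and Foxn1 had 18 and 28 reads over all 12 libraries. The cornified envelope gene Lor and the filaggrin gene Flg held 15 and 7 reads in all.

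Of 18 hair follicle genes other than keratins 12 had a row. Their summed level was 2.15 ± 0.38 CPM (anti-miR-106b, day 7), 2.36 ± 0.31 CPM (scrambled, day 7), 4.17 ± 0.42 CPM (anti-miR-106b, day 3) and 3.27 ± 0.22 CPM (scrambled, day 3; SD, n = 3 each). Padi3, a peptidylarginine deiminase of the hair follicle, had the most reads of this list, with 4, 5 and 13 reads in the anti-miR-106b libraries and 1, 8 and 11 in the scrambled libraries at day 7, against 74, 78 and 57 in the anti-miR-106b libraries and 31, 23 and 21 in the scrambled libraries at day 3. Padi3 thus had the order of groups seen for Krt31 and Krt33b at day 3, with no overlap between the days. Like Krt33b, Padi3 reached 1 CPM only in the anti-miR-106b libraries at day 3, the group where it was highest. Of 33 epidermal genes other than keratins, 24 had a row, summing to 23.1 ± 0.8, 24.5 ± 1.6, 29.6 ± 0.7 and 26.6 ± 0.3 CPM in the same order of groups. Melanocyte genes, 6 of 8 with a row, summed to 0.37 ± 0.03, 0.36 ± 0.08, 0.54 ± 0.13 and 0.50 ± 0.24 CPM, and 5 of 6 sebaceous gland genes to 3.47 ± 0.53, 3.09 ± 0.60, 6.54 ± 0.39 and 5.22 ± 0.06 CPM. These sums are on the authors' scale. Its library size was 0.803 to 0.887 times the assigned reads at day 7 and 1.09 to 1.32 times at day 3. Scaled to total reads, day 3 would stand higher against day 7 in every list, the hair keratins included. In reads the epidermal list held 2060, 2458, 3836 and 2922 in the same order of groups. Within these lists the genes differed, and the higher sebaceous sum at day 3 came mainly from Awat2, described below. The epidermal genes Trp63, a transcription factor of basal cells, and Itgb4, a hemidesmosome integrin, held 247 to 406 and 88 to 353 reads in every library of both days.

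Several skin genes had the day pattern of Krt31 and Krt33b, while other genes of their lists differed. Over the 4 tested sebaceous gland genes the median log2 fold change of day 7 over day 3 was 0.21 with anti-miR-106b and -0.58 with the scrambled inhibitor. Over the 8 tested epidermal genes it was -0.05 and -0.24. The median log2 fold change of anti-miR-106b over scrambled muscle at day 3 was -0.46 and -0.10 in these 2 lists. Pkp1, a desmosomal plakophilin of epidermis, had 5, 4 and 2 reads in the anti-miR-106b libraries and 5, 7 and 3 in the scrambled libraries at day 7, against 139, 141 and 121 in the anti-miR-106b libraries and 113, 61 and 87 in the scrambled libraries at day 3. Awat2, a wax synthase of the sebaceous gland, had 6, 0 and 7 reads in the anti-miR-106b libraries and 4, 9 and 5 in the scrambled libraries at day 7, against 197, 187 and 153 in the anti-miR-106b libraries and 86, 68 and 59 in the scrambled libraries at day 3. The whole sebaceous list, Awat2 included, held 308 reads (anti-miR-106b, day 7), 307 (scrambled, day 7), 844 (anti-miR-106b, day 3) and 573 (scrambled, day 3). The higher sum of that list at day 3 thus came mainly from Awat2. Cdsn, the corneodesmosin gene, named here after its values were seen, had 6, 4 and 4 reads in the anti-miR-106b libraries and 0, 6 and 5 in the scrambled libraries at day 7, against 56, 60 and 44 in the anti-miR-106b libraries and 16, 11 and 37 in the scrambled libraries at day 3. In Pkp1, Awat2, Cdsn and Padi3 the level (CPM) in every anti-miR-106b library at day 3 lay above that in every scrambled one, and the days did not overlap. Padi3 passed the filter only through that anti-miR-106b group, and Cdsn mainly through it. Their differences at day 3 are thus descriptions and not independent support. None of Pkp1, Awat2, Cdsn and Padi3 was called higher with anti-miR-106b at day 3. Among all tested genes 31.2% were higher without overlap at day 3, and 32.4% were lower in every day 7 library than in every day 3 library. Skin and hair genes thus moved with the hair keratins in part, and the part of skin or hair RNA in the keratin reads was not tested.

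**Figure D3:**
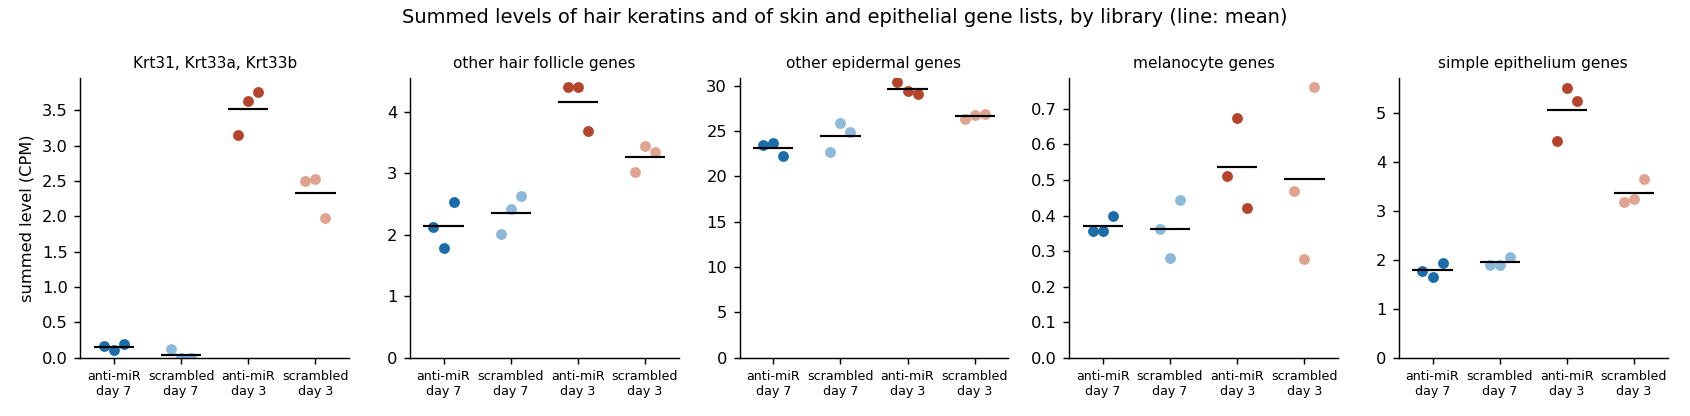
Summed level in CPM (y axis, a scale for each panel, from 0) of Krt31, Krt33a and Krt33b and of 4 lists of skin or epithelial genes that hold no keratins, in the 4 groups; points are libraries and lines means of 3. The hair keratin sum is 3.52 and 2.33 CPM at day 3 and 0.156 and 0.040 CPM at day 7 (anti-miR-106b and scrambled), and the epidermal list is 29.6 and 26.6 CPM at day 3 and 23.1 and 24.5 CPM at day 7.

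The simple epithelial keratins Krt18 and Krt8 were the most abundant pair. Krt18 (type I, chr15:102028180-102032027, plus strand) had 114, 138 and 259 reads in the anti-miR-106b libraries and 94, 180 and 533 in the scrambled libraries at day 7, against 1595, 983 and 994 in the anti-miR-106b libraries and 646, 412 and 480 in the scrambled libraries at day 3. Krt8, its type II partner on the same chromosome (chr15:101996698-102004482, minus strand), had 35, 76 and 101 reads in the anti-miR-106b libraries and 24, 98 and 262 in the scrambled libraries at day 7, against 665, 368 and 380 in the anti-miR-106b libraries and 338, 198 and 230 in the scrambled libraries at day 3. Day 7 and day 3 overlapped for both genes through the third scrambled library at day 7, which held the most Krt18 and Krt8 of the day 7 libraries. The 2 genes moved together from library to library: Krt18 had 1.82 to 3.92 reads for each Krt8 read, and within each group the 3 libraries ranked alike for both.

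Per kilobase of exon, Krt18 was the highest of the 32 in each group. Its level was 3.99 ± 1.79 CPM per kb (anti-miR-106b, day 7), 5.76 ± 5.27 (scrambled, day 7), 19.1 ± 4.2 (anti-miR-106b, day 3) and 9.70 ± 1.91 (scrambled, day 3; SD, n = 3 each). Krt8 stood at 1.23 ± 0.59, 2.01 ± 2.01, 5.53 ± 1.55 and 3.54 ± 0.87 CPM per kb in the same groups. Krt31 and Krt33b, at 1.12 ± 0.20 and 0.952 ± 0.160 CPM per kb in the anti-miR-106b group at day 3, came close to Krt10 there (0.983 ± 0.154) and did not differ from it beyond their spread. A Krt8 pseudogene, Krt8-ps, shares 26.9% of the 50-base words in Krt8 transcripts and held 4 reads in all. Reads of those stretches may not be assignable to 1 gene.

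The other simple epithelial keratins were low. Krt19 (type I, without a tail domain) had 5, 9 and 4 reads in the anti-miR-106b libraries and 15, 12 and 12 in the scrambled libraries at day 7, against 22, 16 and 14 in the anti-miR-106b libraries and 13, 20 and 8 in the scrambled libraries at day 3. Krt7 (type II, of ducts and glands) had 6, 7 and 4 reads in the anti-miR-106b libraries and 10, 8 and 10 in the scrambled libraries at day 7, against 25, 22 and 19 in the anti-miR-106b libraries and 15, 6 and 8 in the scrambled libraries at day 3. Krt20 and Krt23 held 29 and 9 reads over all 12 libraries. Krt18 and Krt8 thus stood far above their usual companions in epithelium.

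Marker genes of simple epithelium and of mesothelium, 2 other places where Krt8 and Krt18 are known, were counted in the same libraries. All 12 simple epithelium genes had a row and summed to 1.78 ± 0.15 CPM (anti-miR-106b, day 7), 1.95 ± 0.10 CPM (scrambled, day 7), 5.05 ± 0.57 CPM (anti-miR-106b, day 3) and 3.36 ± 0.25 CPM (scrambled, day 3). Epcam and Cdh1, the defining adhesion genes of epithelium, held 51 and 144 reads over all libraries, against 6428 for Krt18. Spint1, a protease inhibitor of epithelium, had the most reads of the list, with 4, 4 and 5 reads in the anti-miR-106b libraries and 2, 13 and 9 in the scrambled libraries at day 7, against 90, 99 and 91 in the anti-miR-106b libraries and 38, 36 and 41 in the scrambled libraries at day 3. Of the 6 mesothelium genes 5 had a row. Their sum was 6.43 ± 2.03 CPM (anti-miR-106b, day 7), 4.96 ± 1.06 CPM (scrambled, day 7), 43.7 ± 3.0 CPM (anti-miR-106b, day 3) and 34.5 ± 4.9 CPM (scrambled, day 3). Nearly all of it was mesothelin (Msln) with 10205 reads, while Upk3b and Wt1, which define mesothelium, had 3 and 33. Both sums were higher at day 3 than at day 7 and, at day 3, higher with anti-miR-106b, as Krt18 and Krt8 were on average. At day 7 the mesothelium sum averaged higher with anti-miR-106b, while Krt18 and Krt8 averaged lower. The part of these cells in the keratin reads was not tested.

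Krt80 (chr15:101347444-101370162, minus strand), a type II keratin of epithelia, had 119, 97 and 97 reads in the anti-miR-106b libraries and 92, 157 and 74 in the scrambled libraries at day 7, against 515, 416 and 311 in the anti-miR-106b libraries and 238, 235 and 208 in the scrambled libraries at day 3. All day 7 libraries lay below all day 3 libraries, and at day 3 all anti-miR-106b libraries lay above all scrambled ones. Of its exonic bases 4.11% overlap the antisense gene Gm35853, which held 517 reads over all libraries. Whether reads were counted by strand is not given in the sources used here, so reads of that stretch cannot be told apart.

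Krt10 and Krt222 had the opposite order of days on the authors' scale. Krt10 (chr11:99385254-99389364, minus strand), the suprabasal epidermal keratin, had 107, 95 and 122 reads in the anti-miR-106b libraries and 113, 128 and 91 in the scrambled libraries at day 7, against 81, 95 and 90 in the anti-miR-106b libraries and 92, 94 and 76 in the scrambled libraries at day 3. As a level this was 3.63 ± 0.37 CPM (anti-miR-106b, day 7), 3.30 ± 0.37 CPM (scrambled, day 7), 2.08 ± 0.33 CPM (anti-miR-106b, day 3) and 2.38 ± 0.23 CPM (scrambled, day 3; SD, n = 3 each), with every day 7 library above every day 3 library. The same direction without overlap was seen in 29.0% of all tested genes. Scaled to total reads instead, Krt10 was at 3.00 ± 0.22, 2.78 ± 0.21, 2.66 ± 0.48 and 2.67 ± 0.23 CPM and the days overlapped. Its epidermal type II partner Krt1 had no row in the table, and Krt2, another suprabasal keratin, held 10 reads.

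Krt222 (chr11:99232761-99244085, minus strand) encodes a keratin-like protein that lacks part of the usual rod domain. It had 115, 97 and 103 reads in the anti-miR-106b libraries and 126, 136 and 97 in the scrambled libraries at day 7, against 61, 63 and 42 in the anti-miR-106b libraries and 110, 98 and 109 in the scrambled libraries at day 3. Its level was 3.53 ± 0.16 CPM (anti-miR-106b, day 7), 3.57 ± 0.42 CPM (scrambled, day 7), 1.27 ± 0.16 CPM (anti-miR-106b, day 3) and 2.89 ± 0.18 CPM (scrambled, day 3). The anti-miR-106b group at day 3 stood apart from the other 3 groups, without overlap. Scaled to total reads, the scrambled group was at 3.00 ± 0.24 CPM at day 7 and 3.24 ± 0.25 CPM at day 3, so the direction between days in scrambled muscle flips with the scaling, while the anti-miR-106b group was at 2.93 ± 0.18 CPM at day 7 and 1.62 ± 0.17 CPM at day 3.

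**Figure D4:**
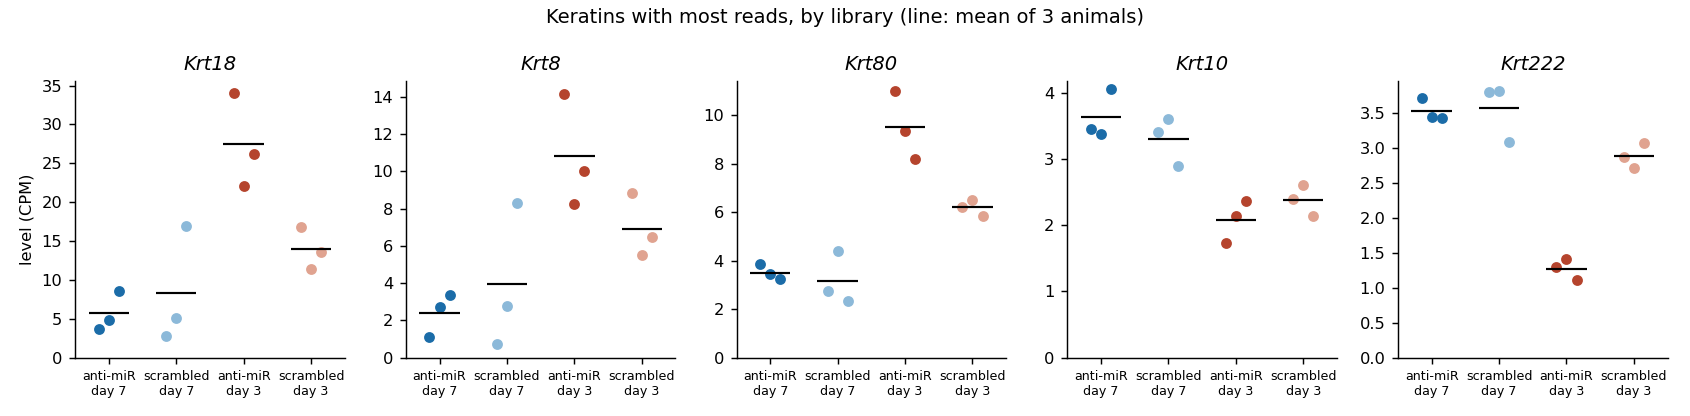
Level in CPM (y axis, a scale for each panel, from 0) of Krt18, Krt8, Krt80, Krt10 and Krt222 in the 4 groups; points are libraries and lines means of 3. Krt222 is lowest in the anti-miR-106b group at day 3 (1.27 CPM), where Krt18 is highest (27.4 CPM).

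The size of the difference between days is given for the 7 tested genes as a log2 fold change of day 7 over day 3, without a test. With anti-miR-106b it was -5.15 for Krt31, -3.74 for Krt33b, -2.32 for Krt18, -2.27 for Krt8, -1.43 for Krt80, 0.81 for Krt10 and 1.47 for Krt222. With the scrambled inhibitor it was -6.52 for Krt31, -5.86 for Krt33b, -1.14 for Krt18, -1.41 for Krt8, -1.01 for Krt80, 0.47 for Krt10 and 0.30 for Krt222. The values of Krt31 and Krt33b depend on the prior count the authors added, because several day 7 libraries held no read.

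The effect of the inhibitor was tested over all 14063 genes that passed the filter. At day 3 limma called 35.7% of them at an adjusted p below 0.05 (16.3% higher and 19.4% lower with anti-miR-106b), and 2 of the 7 keratins. The keratins' median log2 fold change was 0.61, against 0.01 for all tested genes. The 7 include Krt33b, which entered only through the anti-miR-106b group at day 3. Krt222 fell by 1.18 on the log2 scale (SE 0.14, adjusted p = 8.09e-05), to 0.441 times its level in scrambled muscle, and was lower in each of the 3 anti-miR-106b libraries than in any scrambled one. Krt80 rose 1.52-fold (log2 fold change 0.61, SE 0.19, adjusted p = 0.0228). The Krt80 call was lost without anti-miR-106b day 3 replicate 1 (adjusted p = 0.0969) or replicate 2 (0.0597) and without scrambled day 3 replicate 1 (0.0513) or replicate 3 (0.0752).

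Krt18, Krt33b, Krt8 and Krt31 had positive estimates at day 3 that did not pass. Krt18 averaged 27.4 ± 6.1 CPM in anti-miR-106b muscle and 13.9 ± 2.7 CPM in scrambled muscle (SD, n = 3 each), without overlap, and its log2 fold change was 0.97 (SE 0.48, adjusted p = 0.129 in limma). Krt33b had 1.49, 1.26 and 1.76 CPM in anti-miR-106b muscle and 0.992, 0.86 and 0.733 CPM in scrambled muscle, also without overlap. Its log2 fold change was 0.80 (SE 0.75, adjusted p = 0.429 in limma). Krt33b passed the filter only through this anti-miR-106b group, so its difference at day 3 is a description and not independent support. Among all tested genes 31.2% were higher without overlap at day 3 and 29.3% were lower. For Krt8 the log2 fold change was 0.63 (SE 0.64, adjusted p = 0.46) and for Krt31 0.37 (SE 0.75, adjusted p = 0.729), and their libraries overlapped. Krt10 stood at -0.21 (SE 0.15, adjusted p = 0.314). The standard errors of Krt18, Krt8, Krt31 and Krt33b take in the wide spread of these genes at day 7, since the 4 groups share 1 estimate of spread. Fitted on the day 3 groups alone, where limma called 52.5% of all tested genes, 3 of them passed: Krt18 (adjusted p = 1.1e-04), Krt33b (0.00542) and Krt8 (0.0108). The limit from the filter holds for Krt33b in that fit too.

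**Figure D5:**
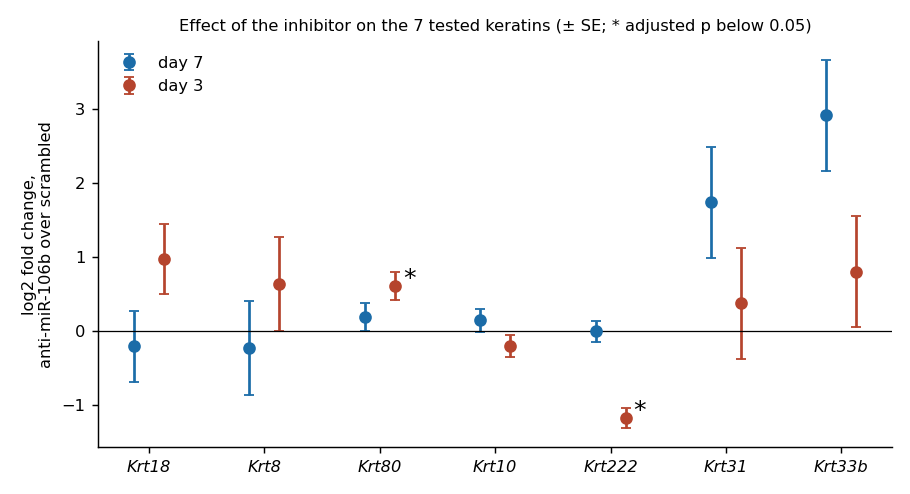
Log2 fold change of anti-miR-106b over scrambled muscle (y axis) with its standard error for the 7 tested keratins (x axis), day 7 to the left of day 3 for each gene; asterisks mark an adjusted p below 0.05. Krt222 (-1.18) and Krt80 (0.61) carry an asterisk at day 3, and no gene does at day 7.

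At day 7 none of the 7 keratins passed, and limma called 0.064% of all tested genes (9 of 14063, with 1580 at an unadjusted p below 0.05), 0.00711% higher and 0.0569% lower. Of all tested genes 5.18% were higher in every anti-miR-106b library at day 7 than in every scrambled one, as Krt33b was, and 5.69% were lower. Krt33b, at 3, 2 and 5 reads in anti-miR-106b muscle and 2, 0 and 0 in scrambled muscle, was the keratin with the lowest adjusted p (0.166), and on so few reads its fitted fold change of 2.91 on the log2 scale depends on the prior count. Krt18 had a log2 fold change of -0.21 (SE 0.48), Krt8 of -0.23 (SE 0.64), Krt80 of 0.19 (SE 0.19), Krt10 of 0.14 (SE 0.15) and Krt222 of -0.01 (SE 0.14). Without scrambled day 7 replicate 3, the library with most Krt18 and Krt8, the estimates of Krt18 and Krt8 turned to 0.51 and 0.62 and did not pass. A difference of the inhibitor's effect between the days was called by limma for 22.3% of all tested genes (13.2% higher and 9.07% lower) and for 1 of the 7 keratins, Krt222 (day 7 minus day 3 of the log2 fold change 1.17, SE 0.20, adjusted p = 0.00201).

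The remaining 25 genes lay below the filter and were fitted only together with all 28116 symbols, where 15.9% were called at day 3. None of these 25 passed at either day. Krt33a was higher in every anti-miR-106b library than in every scrambled library at day 3 (log2 fold change 1.11, SE 0.69, adjusted p = 0.35 in limma), and so were Krt7 (1.03, SE 0.42, adjusted p = 0.121), Krt83 (2.63, SE 1.00, adjusted p = 0.0907) and Krt13 (2.11, SE 1.02, adjusted p = 0.206). Krt83 had 3, 4 and 2 reads in anti-miR-106b muscle and 0, 0 and 1 in scrambled muscle there, so its fitted value depends on the prior count, and the same holds for Krt13. Of all 28116 symbols 19% were higher without overlap at day 3 and 17.3% were lower. At day 7 Krt19 (adjusted p = 0.51) and Krt78 (adjusted p = 0.296) were lower in every anti-miR-106b library, as were 4.59% of all symbols, while 4.99% were higher. Krt79, a keratin of the sebaceous duct, had 2, 1 and 0 reads in anti-miR-106b muscle and 2, 7 and 5 in scrambled muscle at day 3 (adjusted p = 0.0554). At these depths a difference of a few reads could not be detected. Krt12, Krt27, Krt4, Krt36, Krt28, Krt25 and Krt83, keratins of cornea, root sheath, mucosa and hair, had 9 to 24 reads over all 12 libraries. Krt78, Krt13, Krt75, Krt6a, Krt87, Krt90, Krt86 and Krt5 held 3 to 8.

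Because the treatment targets miR-106b, the 3 prime untranslated regions were searched for its seed. The mature RefSeq sequence is shown with its seed, bases 2 to 8, in capitals.
miR-106b-5p, GRCm38.p6 chr5:138165787-138165807, minus strand: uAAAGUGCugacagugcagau
None of the 31 keratin genes with an annotated 3 prime region held GCACTTT, the match to the seed, on the transcript strand, which 13.4% of 17348 symbols did in their longest such region. The shorter match CACTTT was present in 5 of the 31 (Krt10, Krt7, Krt25, Krt75 and Krt87), 16.1%, against 40.2% of all. Krt80 and Krt222, the 2 genes called at day 3, had neither. A match is only a run of letters, and many of these regions are short: 66 bases in Krt18 and 242 in Krt8, though 2648 in Krt80.

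Other intermediate filament genes of the muscle were listed for comparison. Of 8 (Des, Vim, Nes, Synm, Sync, Lmna, Lmnb1 and Lmnb2) 5 rose and 2 fell with anti-miR-106b at day 3 (median 0.36 on the log2 scale), and desmin (Des) did not pass. Synm, the desmin partner synemin, fell by 1.09 on the log2 scale (SE 0.11, adjusted p = 3.44e-05 in limma), while Vim, the vimentin gene of mesenchymal cells, rose by 0.40 (SE 0.14, adjusted p = 0.0401). Of 10 cytolinker and desmosome genes, whose proteins tie filaments to junctions, 8 were tested, and Dst and Ppl fell. Of the 8 epidermal genes tested, Itgb4 rose, and Perp and Calml3 fell. Perp and Calml3 were named after their values were seen. Of the 8 skeletal muscle genes listed, 2 rose and 4 fell with anti-miR-106b at day 3 (median -0.16 on the log2 scale). Their sum was 44680 CPM in anti-miR-106b muscle and 68411 CPM in scrambled muscle at day 3. The part of these genes' changes in the keratin differences was not tested.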

How the data were processed

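Total RNA of whole muscle was made into Illumina TruSeq libraries, per the labels' protocols. The submitters' processing notes name the build mm10 and the tools limma 3.34.9, edgeR 3.20.9, featureCounts, STAR, Trim Galore 0.4.3.1 and FastQC 0.72, without order, settings or strand. The deposited values are log2 CPM from the authors. After the logarithm was removed they had equal steps, which gave back whole reads (within 0.001, for all symbols) and a prior of 0.25 reads on average. The design text gives 3 animals for each group, without saying whether an animal gave muscles to more than 1 group, and libraries were treated as independent. Replicates differed by more than sampling noise.

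Symbols with at least 1 CPM in at least 3 of 12 libraries (14063 of 28116) were fitted in R 4.3.3 by limma 3.58.1, using group means and a prior variance following expression (8 residual and 5.59 prior degrees of freedom). Tests were two-sided, with Benjamini-Hochberg adjustment within each comparison. The script was tested on simulated data. Named keratins are those passing the filter, Krt19 and the 15 next by reads; of each other list, the 4 with most reads. Genes and lists were chosen with earlier results of these data known. Sequences are RefSeq GRCm38.p6; positions and lengths are GENCODE M21. The design text once gives the later day as 5; all labels say 7, which was used. Deviations of same-numbered replicates were weakly correlated (0.03, 0.03 and 0.10 at day 3, 0.03, -0.04 and 0.14 at day 7). At day 3 these values lay above those of differently numbered replicates (-0.06 to 0.01). At day 7 they overlapped with them (-0.22 to 0.17). Alternatives changed the filter, pseudocount, scaling, prior, weights, groups fitted, block and libraries.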

Additional observations from a re-analysis of the deposited data

Results flagged for a closer look

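Krt222, the truncated keratin-like gene, was picked out because the effect of the inhibitor differed between the days in a test of that difference: the log2 fold change of anti-miR-106b over scrambled muscle was 1.17 higher at day 7 than at day 3 (SE 0.20, adjusted p = 0.00201 in limma). It was -0.01 at day 7 and -1.18 at day 3. The call held under every alternative run.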

How the results depend on the processing

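Limits first: the 25 keratins below the filter rest on 3 to 150 reads each, and day 7 values of Krt31 and Krt33b on 0 to 5 reads a library, so folds there depend on the prior count. The calls of Krt222 at day 3 and between days held under every alternative run. The count of keratins called at day 3 was 2 and became 4 with voom weights, 5 with library weights, 5 with the day 3 groups alone (41.7%, 62.7% and 52.5% of all tested genes were called in those fits) and 1 to 3 when each library was left out. At day 7 it was 0 and became 1 with library weights and 0 to 2 with a library left out, and for the difference between days it was 1 and became 3 with library weights, 2 with the replicate block (37.9% and 20.2% of all tested genes) and 1 to 5 with a library left out.

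Over all genes, library weights called 8820 at day 3, 58 at day 7 and 5334 between days, against 5022, 9 and 3134. At day 7 the count was 20 with a limit of 0.5 CPM, 15 with no filter, 35 with log2(CPM + 1), 28 scaled to total reads and 2 with the day 7 groups alone. Leaving out a library gave 0 to 457 at day 7 and 2063 to 4555 between days; the 457 came without scrambled day 7 replicate 1, where Krt33b (adjusted p = 0.00319) and Krt31 (0.0125) passed. Without that library Krt18 passed at day 3 (0.0491), and Krt18 (0.0268), Krt8 (0.04), Krt31 (0.0138) and Krt33b (0.00328) passed between days beside Krt222; without scrambled day 7 replicate 3 Krt18 passed at day 3 (0.0163). Krt33b, which entered only through the anti-miR-106b group at day 3, passed at day 3 in limma with log2(CPM + 1) (adjusted p = 0.00537). Scaling to total reads moved the median of all genes at day 3 by about 0.20 and called 5159 higher and 1391 lower, against 2296 and 2726; Krt80 was then at 0.80 and Krt222 at -0.99, both still called.

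With the replicate number as a block, the count was 0 at day 7, and Krt18 passed at day 3 (0.00579). Whether the numbers pair the libraries is not settled by the weak correlations between same-numbered replicates. Signs turned in these cases, the cause of which was not tested. Between days with log2(CPM + 1), Krt31 was at -0.19 and Krt33b at -0.30. At day 7, Krt80 was at -0.12 with library weights; Krt18 and Krt8 were at 0.06 and 0.24 without anti-miR-106b replicate 1 and at 0.51 and 0.62 without scrambled replicate 3. Over all libraries left out in turn, day 7 values ran from -0.78 to 0.51 for Krt18, -1.14 to 0.62 for Krt8 and -0.11 to 0.045 for Krt222. Without the third library of both day 7 groups, chosen after seeing the data, Krt18, Krt8 and Krt10 were at 0.17, 0.31 and -0.034 at day 7, and Krt18 passed at day 3 (0.00519). A prior of 0.25 reads gave the same 15401 reads.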
